A study of Mus musculus with 6 samples.

Results

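Guanylate-binding proteins (GBPs) and immunity-related GTPases (IRGs) were followed in bone marrow-derived macrophages of wild-type (WT) mice and of mice with a Gps2 knockout (GPS2KO). The set was given as 10 genes, Gbp2, Gbp3, Gbp5, Gbp6, Gbp7, Irgm1, Irgm2, Igtp, Iigp1 and Ifi47, and not as whole families. A gene was measured on its own where a probe set of the array platform carried its symbol alone, and the brightest such probe set over all 6 arrays stood for it. This held for 6 of the 10 genes, Gbp2, Gbp3, Gbp5, Gbp7, Irgm1 and Iigp1, out of 18820 tested genes. The other 4, Gbp6, Irgm2, Igtp and Ifi47, lay only on probe sets that also carried other symbols and are given apart.

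Each group had 3 arrays. WT and GPS2KO macrophages were grown alike, from the marrow of male mice aged 12 to 16 weeks, for 7 days in medium with 30% L929-conditioned medium, a source of macrophage growth factor, and received no stimulus. The labels give the knockout as GPS2KO, KO or MKO and place it in the macrophage, without the promoter that drove the deletion or the exons removed. Whether the arrays of a group came from different animals is not stated, so the p-values rest on the spread among these arrays alone, which may be technical. GPS2, G protein pathway suppressor 2, belongs to a nuclear co-repressor complex, and the comparison asks what changes in resting macrophages when its gene is knocked out.

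GBPs and IRGs are GTPases that macrophages make in response to interferons, above all interferon gamma. They gather on vacuoles that hold parasites or bacteria and on bacteria in the cytosol, and help to break them open. GBPs are large, dynamin-related proteins, some of which are anchored in membranes by a prenyl group. IRGs fall into effectors that coat vacuoles (Iigp1, Ifi47) and regulators on the cell's own membranes (Irgm1, Irgm2, Igtp) that keep the effectors inactive there.

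Promoter sequences are shown first, because the genes share interferon-type motifs that the data can be set beside. The windows ran from 250 bases before to 50 bases after each annotated start, from RefSeq on GRCm38.p6. Both strands were searched for GAAA, any 2 bases and GAAA again, the core of the interferon-stimulated response element (ISRE) read by interferon regulatory factors and STAT complexes. They were also searched for TTCNNNGAA, the core of the gamma-activated site (GAS) that STAT dimers bind. Of the 10 genes, 8 had a window. The ISRE core was in windows of 7 of these 8, against 3.44% of all 32851 windows, and the GAS core in windows of 4, against 8.3%. Both were found in windows of 4 genes, Gbp5, Gbp7, Irgm2 and Igtp, against 0.454% of all windows. A gene was counted if any of its windows held the core, while these shares are of single windows. Counted by gene, 576 of 14749 tested genes with a window had the ISRE core, 1336 the GAS core and 94 both. A match is a run of letters and not a measured binding site.

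The stretches below lie before the start of each gene and are written on the gene's strand, with letters that belong to an ISRE or GAS core in capitals. The stretches of the neighbours on chromosome 3 are chr3:142620563-142620662 (+) for Gbp2, chr3:142559944-142560043 (+) for Gbp3, chr3:142530216-142530335 (+) for Gbp7 and chr3:142496754-142496903 (+) for Gbp5. They show that the gene that rose, Gbp7, carries the same kind of ISRE core as those that fell, Gbp2 and Gbp3. The windows of Gbp7 and Gbp5 also hold 2 GAS cores each, while those of Gbp2 and Gbp3 hold 0.
Gbp2: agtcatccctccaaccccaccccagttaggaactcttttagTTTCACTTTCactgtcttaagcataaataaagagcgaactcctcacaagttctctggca
Gbp3: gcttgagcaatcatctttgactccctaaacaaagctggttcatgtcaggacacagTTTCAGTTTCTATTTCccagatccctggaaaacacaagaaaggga
Gbp7: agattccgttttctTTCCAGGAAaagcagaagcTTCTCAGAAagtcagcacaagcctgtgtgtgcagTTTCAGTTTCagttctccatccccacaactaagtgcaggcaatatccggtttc
Gbp5: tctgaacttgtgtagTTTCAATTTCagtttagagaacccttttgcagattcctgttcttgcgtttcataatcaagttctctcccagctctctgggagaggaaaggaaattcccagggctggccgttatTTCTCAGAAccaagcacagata

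Gbp3 has a second window, without either core, and its first window has a pair of overlapping ISRE cores. Gbp5 has a further GAS core at base -245, before the stretch shown. In Gbp7 both GAS cores lie before the ISRE core.

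The stretches on chromosome 11 are chr11:48871421-48871520 (-) for Irgm1, chr11:58199456-58199555 (+) for Igtp, chr11:58214877-58214976 (+) for Irgm2, chr11:58183743-58183842 (+) for Gm12250 and chr11:49076487-49076586 (+) for Ifi47. Gm12250 is an IRG outside the 10 genes, also called Irgb10, and is the next coding gene to Igtp. They are shown because Igtp and Irgm2 share a probe set as well as a promoter layout, and because Ifi47 has neither core in its window.
Irgm1: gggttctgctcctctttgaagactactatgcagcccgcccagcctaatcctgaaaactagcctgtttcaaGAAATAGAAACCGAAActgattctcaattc
Igtp: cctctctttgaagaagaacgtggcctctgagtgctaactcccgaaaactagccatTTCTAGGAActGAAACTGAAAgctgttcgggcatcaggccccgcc
Irgm2: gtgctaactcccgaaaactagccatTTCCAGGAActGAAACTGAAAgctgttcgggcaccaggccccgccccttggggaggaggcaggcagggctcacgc
Gm12250: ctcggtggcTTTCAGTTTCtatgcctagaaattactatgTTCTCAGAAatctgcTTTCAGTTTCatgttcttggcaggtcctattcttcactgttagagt
Ifi47: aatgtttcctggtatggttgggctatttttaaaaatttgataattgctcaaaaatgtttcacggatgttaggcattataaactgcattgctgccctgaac

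Shifted by 30 bases, the Igtp and Irgm2 windows were identical at 184 of 270 aligned bases (68.1%). In both, a GAS core is followed by an ISRE core with 2 bases between them. Irgm1 instead has a pair of overlapping ISRE cores close to the start.

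**Figure D1:**
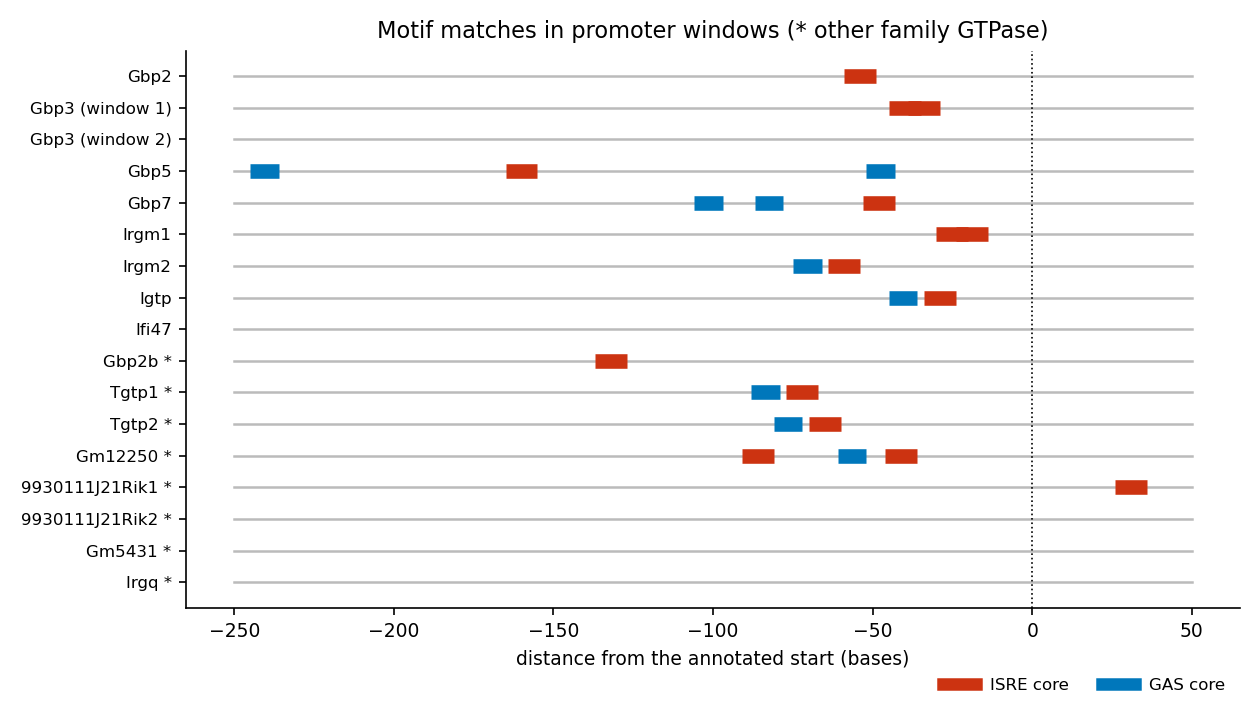
Positions of ISRE (red) and GAS (blue) cores in the promoter windows of the family, in bases from the annotated start (dotted line); grey lines span each window, and an asterisk marks genes outside the 10. All cores of the 10 genes lie before the start, those of Gbp5 at -245 and -165 the farthest from it, and Ifi47 has none.

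As a check of the labels, Gps2 itself was lower in GPS2KO, at 10.21 ± 0.07 against 10.96 ± 0.04 in WT (log2 signal, SD, n = 3 each), a fall of 0.75 (limma adjusted p = 0.000256). This left 59.7% of the WT signal, and the labels do not say whether the probes lie in the deleted part. Array medians of all probe sets ran from 5.57 to 5.6. Of the 18820 genes, 545 rose and 720 fell at an adjusted p under 0.05 (2.9% and 3.83%). With each array centred on its median the split was 460 rises and 1061 falls. Each change is the GPS2KO mean less the WT mean, in log2 units, and values under 5.49, the 40th percentile of the genes' means, are called dim.

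In unstimulated GPS2KO macrophages, Gbp2, Gbp3 and Irgm1 fell, while Gbp7 rose. Gbp2 fell 1.47-fold, Irgm1 1.26-fold and Gbp3 1.18-fold, and Gbp7 rose 1.26-fold (n = 3 each). Gbp5 and Iigp1 had lower means in GPS2KO but did not pass, and both were dim. Thus 4 of the 6 genes passed, 3 down and 1 up, against 6.72% of all tested genes. The median change of the 6 was -0.29, against -0.01 over all tested genes. None of the 6 had overlapping groups, where 27.1% of all genes had groups that did not overlap (15.2% lower and 11.9% higher in GPS2KO). The genes were chosen with earlier results of these data known. These counts and the median are therefore a description and no independent support. In RNA from whole cultures, fewer cells that express a gene and less RNA per cell cannot be told apart.

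Gbp2 is an effector that gathers on the vacuole of Toxoplasma. The WT arrays read 8.24, 8.22 and 7.88 (log2 signal) and the GPS2KO arrays 7.57, 7.57 and 7.52 (probe set 10496592). WT replicate 3 lay below the other WT arrays, and all WT arrays lay above all GPS2KO arrays. Gbp2 fell by 0.56 (SE 0.0918, 95% confidence interval -0.77 to -0.35; limma adjusted p = 0.0115), to 67.9% of the WT signal. Among the 6 genes, the call of Gbp2 was the 1 that held with any single array left out, at adjusted p from 0.00147 to 0.0457.

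Gbp3 lies between Gbp7 and Gbp2b in gene order. Its signal was 6.69, 6.62 and 6.72 in WT and 6.40, 6.45 and 6.45 in GPS2KO (probe set 10496580). The spread within groups was small, with SDs of 0.0488 and 0.0321, and the groups did not overlap. Gbp3 fell by 0.24 (SE 0.0424, 95% confidence interval -0.34 to -0.15; limma adjusted p = 0.0145). Leaving out WT replicate 1 ended the call (adjusted p = 0.0539), as did leaving out WT replicate 3 (0.0522) or GPS2KO replicate 1 (0.0567).

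Gbp5 is known for aiding NLRP3 inflammasome assembly. Its signal was 4.18, 4.40 and 4.30 in WT and 3.95, 4.09 and 3.75 in GPS2KO (probe set 10496539). Both groups lay in the dim range, and they came close to each other without overlapping. The change of -0.36 (SE 0.0923, 95% confidence interval -0.58 to -0.15) did not pass (limma adjusted p = 0.0616). It passed after median centring (adjusted p = 0.045), with a variance trend (0.0154), with the replicate number as a block (0.0483) and without GPS2KO replicate 2 (0.042).

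Gbp7, which has been linked to the delivery of NADPH oxidase parts to vacuoles, went the other way. Its signal was 7.48, 7.55 and 7.40 in WT and 7.84, 7.90 and 7.68 in GPS2KO (probe set 10496569). Every GPS2KO array lay above every WT array, with GPS2KO replicate 3 the lowest of its group. Gbp7 rose by 0.33 (SE 0.0661, 95% confidence interval 0.18 to 0.48; limma adjusted p = 0.0264), to 126% of the WT signal. Leaving out any 1 of 4 arrays ended the call: WT replicate 1 (adjusted p = 0.0783), WT replicate 3 (0.0889), GPS2KO replicate 1 (0.0862) and GPS2KO replicate 2 (0.0858).

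In RefSeq order, Gbp5, Gbp7, Gbp3, Gbp2b and Gbp2 are consecutive coding genes on chromosome 3, so the riser sits between genes with lower means in GPS2KO. The gap between Gbp7 and each other measured gene within an array is given as a description, since Gbp7 was singled out for its rise. Gbp7 minus Gbp2 was -0.64 ± 0.14 in WT and 0.25 ± 0.09 in GPS2KO (SD, n = 3 each), a shift of 0.89. The shifts against Gbp3, Gbp5, Irgm1 and Iigp1 were 0.58, 0.69, 0.67 and 0.58.

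Gbp6 and its relatives lie in another cluster of family genes on chromosome 5. Gbp6 was read on 2 shared probe sets. The one shared with Gbp10 and Gbp11 stood at 5.62 ± 0.06 in WT and 5.63 ± 0.04 in GPS2KO, a difference of 0.01 (95% confidence interval -0.10 to 0.13), whose sign changed under 2 of the normalizations tried. The one shared with Gbp11 alone was dim, at 4.06 ± 0.09 and 4.16 ± 0.19 (n = 3 each). The groups overlapped on both, and neither passed.

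**Figure D2:**
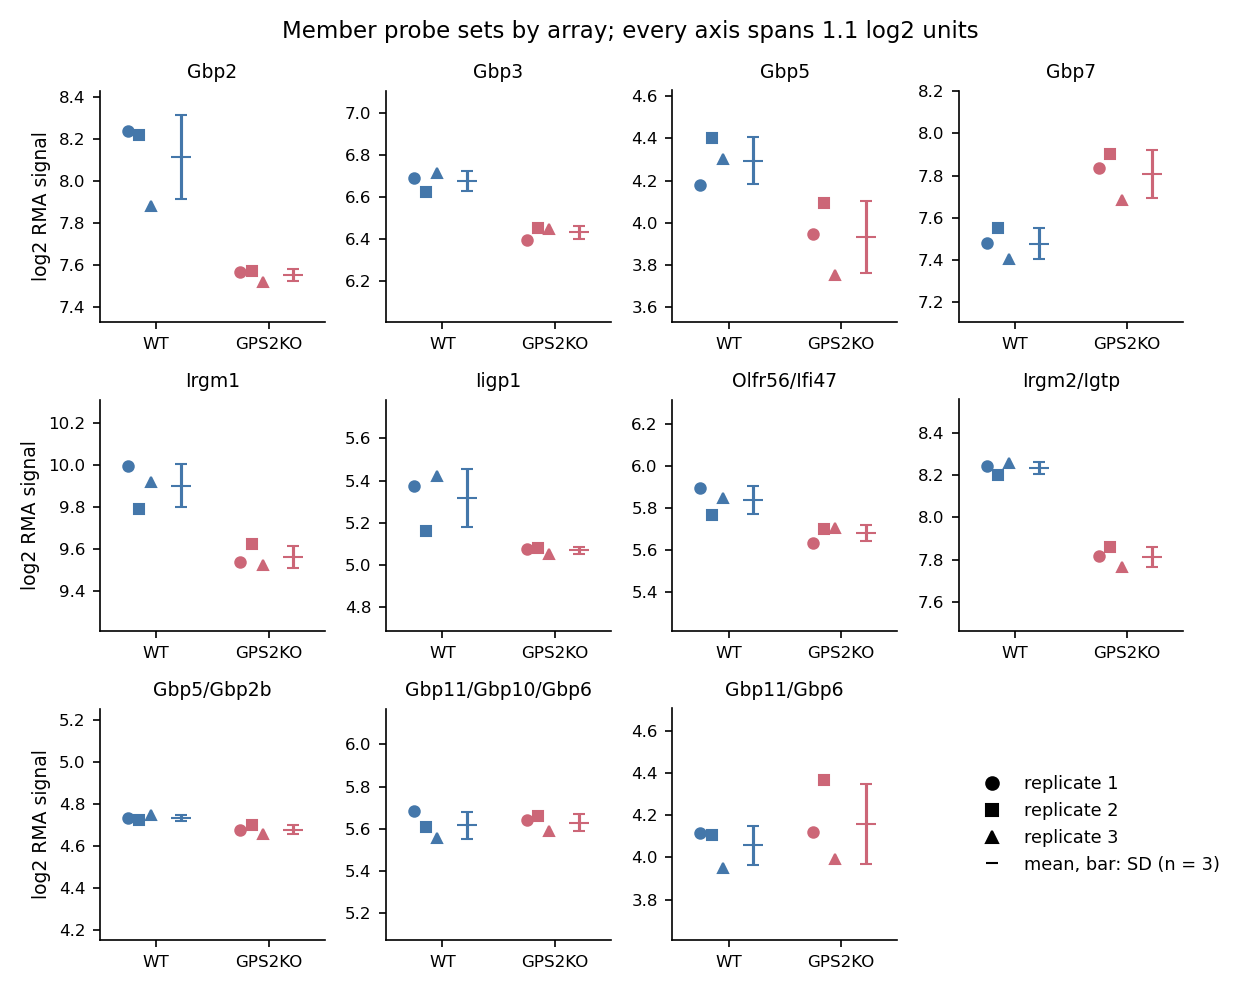
Log2 RMA signal of the 11 probe sets that carry a symbol of the 10 genes, by group, with 1 symbol per replicate number and the mean and SD (n = 3) beside the points; panel names with a slash are shared probe sets. The 3 WT arrays lie above the 3 GPS2KO arrays for Gbp2, Gbp3, Gbp5, Irgm1 and Iigp1, and below them for Gbp7.

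Irgm1, a regulator needed for defence against mycobacteria and for autophagy, was at 10.00, 9.79 and 9.92 in WT and at 9.54, 9.62 and 9.53 in GPS2KO (probe set 10385500). The lowest WT array, replicate 2, was still above the highest GPS2KO array, replicate 2. Irgm1 fell by 0.34 (SE 0.0598, 95% confidence interval -0.48 to -0.20; limma adjusted p = 0.0158). It lost its call when WT replicate 3 (adjusted p = 0.0606), GPS2KO replicate 1 (0.0593) or GPS2KO replicate 3 (0.0623) was left out, and with the replicate number as a block (0.0507).

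Irgm2 and Igtp, which encode the other regulators, share 1 probe set (10376326), and the signal cannot be divided between them. It read 8.24, 8.20 and 8.26 in WT and 7.82, 7.86 and 7.76 in GPS2KO. All WT arrays stood clear of all GPS2KO arrays. In a fit over all 35556 probe sets it fell by 0.42 (SE 0.042, 95% confidence interval -0.52 to -0.32; limma adjusted p = 0.00997), 1.34-fold. This call ended without WT replicate 1 (adjusted p = 0.0542), without GPS2KO replicate 1 (0.0541) and with the replicate number as a block (0.0976).

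Among the effectors, Iigp1, which coats the Toxoplasma vacuole, was dim at 5.38, 5.16 and 5.42 in WT and 5.08, 5.08 and 5.05 in GPS2KO (probe set 10455961). WT replicate 2 lay close to the GPS2KO arrays. The change of -0.25 (SE 0.0677, 95% confidence interval -0.41 to -0.09) did not pass (limma adjusted p = 0.0735). It passed without WT replicate 2 (adjusted p = 0.012) and after median centring (0.0473). The platform lists a transcript under both Iigp1 and Gm4951, a relative in the same cluster, so their probes may share signal.

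Ifi47 shares its probe set with the olfactory receptor gene Olfr56. The signal was 5.84 ± 0.07 in WT and 5.68 ± 0.04 in GPS2KO (n = 3 each), a change of -0.16 that did not pass (limma adjusted p = 0.196 over all probe sets). The groups did not overlap. A further shared probe set, of Gbp5 and Gbp2b, was dim and differed by -0.06 (adjusted p = 0.518).

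Over all 35556 probe sets, 2.32% passed, 1.16% lower and 1.16% higher in GPS2KO, and 22.7% had groups that did not overlap. Groups did not overlap on 9 of the 11 probe sets of the 10 genes. Of these 11, 1 passed in that fit, the shared one of Irgm2 and Igtp, which fell. Adjusted in this way, 0 of the 6 single-symbol probe sets passed limma, although all 6 had an unadjusted p under 0.05, as did 15.5% of all probe sets. Gbp3 had adjusted p = 0.0515, Gbp2 0.0545, Irgm1 0.0624 and Gbp7 0.0867. With dim probe sets left out of this fit, 5 of the 7 that remained passed, 1 higher and 4 lower in GPS2KO. The share of all remaining probe sets that passed is not given here. In the fit over genes, leaving out dim ones raised the calls from 1265 of 18820 to 1962 of 11292.

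**Figure D3:**
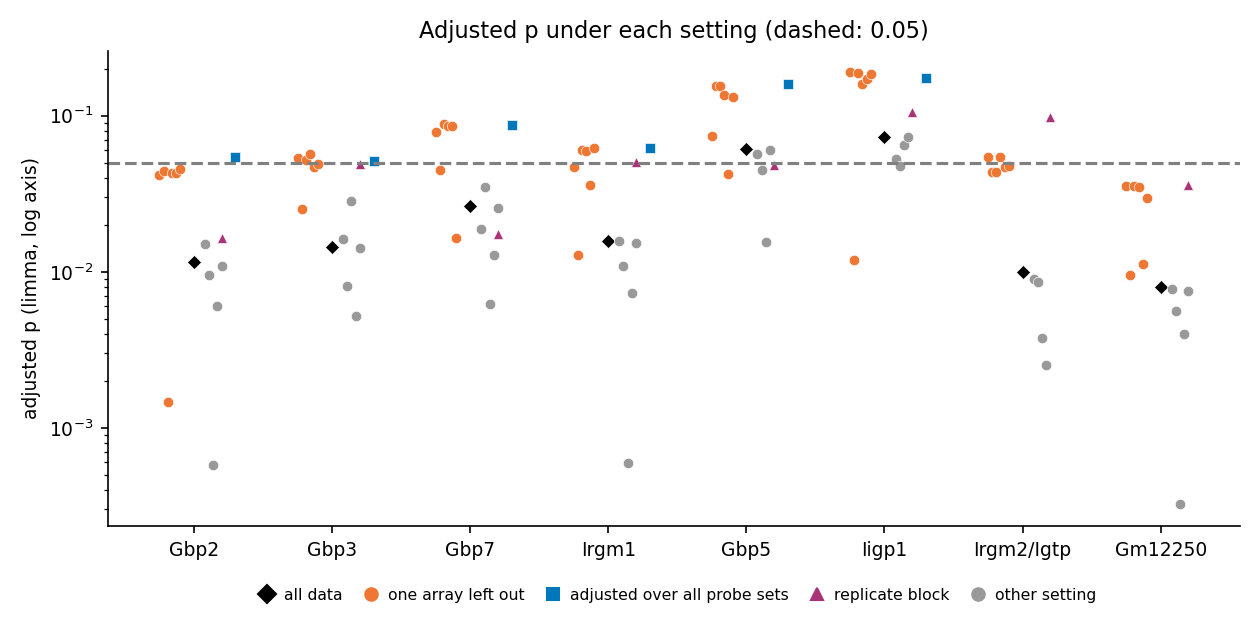
Limma adjusted p (log axis) of single genes under each setting, for all data, with 1 array left out, adjusted over all probe sets, with the replicate block and under the other settings; the dashed line is 0.05. Irgm2/Igtp, a shared probe set, is adjusted over all probe sets throughout. The points with 1 array left out lie on both sides of the line for Gbp3, Gbp5, Gbp7, Irgm1, Iigp1 and Irgm2/Igtp. All points of Gm12250 lie below the line.

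The rest of the families gave a mixed picture. Of 19 further family genes listed, 9 had a probe set of their own, of which 1 fell, 0 rose and 8 did not pass; their median change was -0.04. The gene that fell was Gm12250 (Irgb10), an effector that acts with GBPs on bacteria. It stood at 8.33, 8.14 and 8.36 in WT and 7.71, 7.87 and 7.63 in GPS2KO, and fell by 0.54 (SE 0.0812; limma adjusted p = 0.00801). The groups did not overlap, and the call held with any 1 array left out, at adjusted p up to 0.0357.

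Tgtp1 and Tgtp2, near-identical effectors, share a pair of probe sets. They fell by 0.52 (SE 0.0705; limma adjusted p = 0.0243 over all probe sets) on one and by 0.43 (SE 0.0682; adjusted p = 0.0374) on the other. The RefSeq windows of Tgtp1, Tgtp2 and Gm12250 each hold both an ISRE and a GAS core. Of the 8 further family genes with a window, 5 had the ISRE core and 3 the GAS core.

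Other relatives did not pass. The chromosome 5 genes Gbp4, Gbp8 and Gbp9 differed by -0.11, 0.01 and -0.0039 (adjusted p = 0.353, 0.978 and 0.979), with overlapping groups. Gm4841 differed by -0.19 (adjusted p = 0.074), Gm4951 by 0.01 and Gm5431 by -0.04. Irgc1, whose product is best known from testis, and Irgq differed by -0.07 and 0.02. Gbp4, Gbp8, Gm4841 and Irgc1 were dim in both groups. Among shared probe sets, those of 9930111J21Rik1 and 9930111J21Rik2 differed by 0.04 and 0.11, and those of the giant GTPase Gvin1 and its copies by -0.10, -0.47 and -0.12, none past the threshold.

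**Figure D4:**
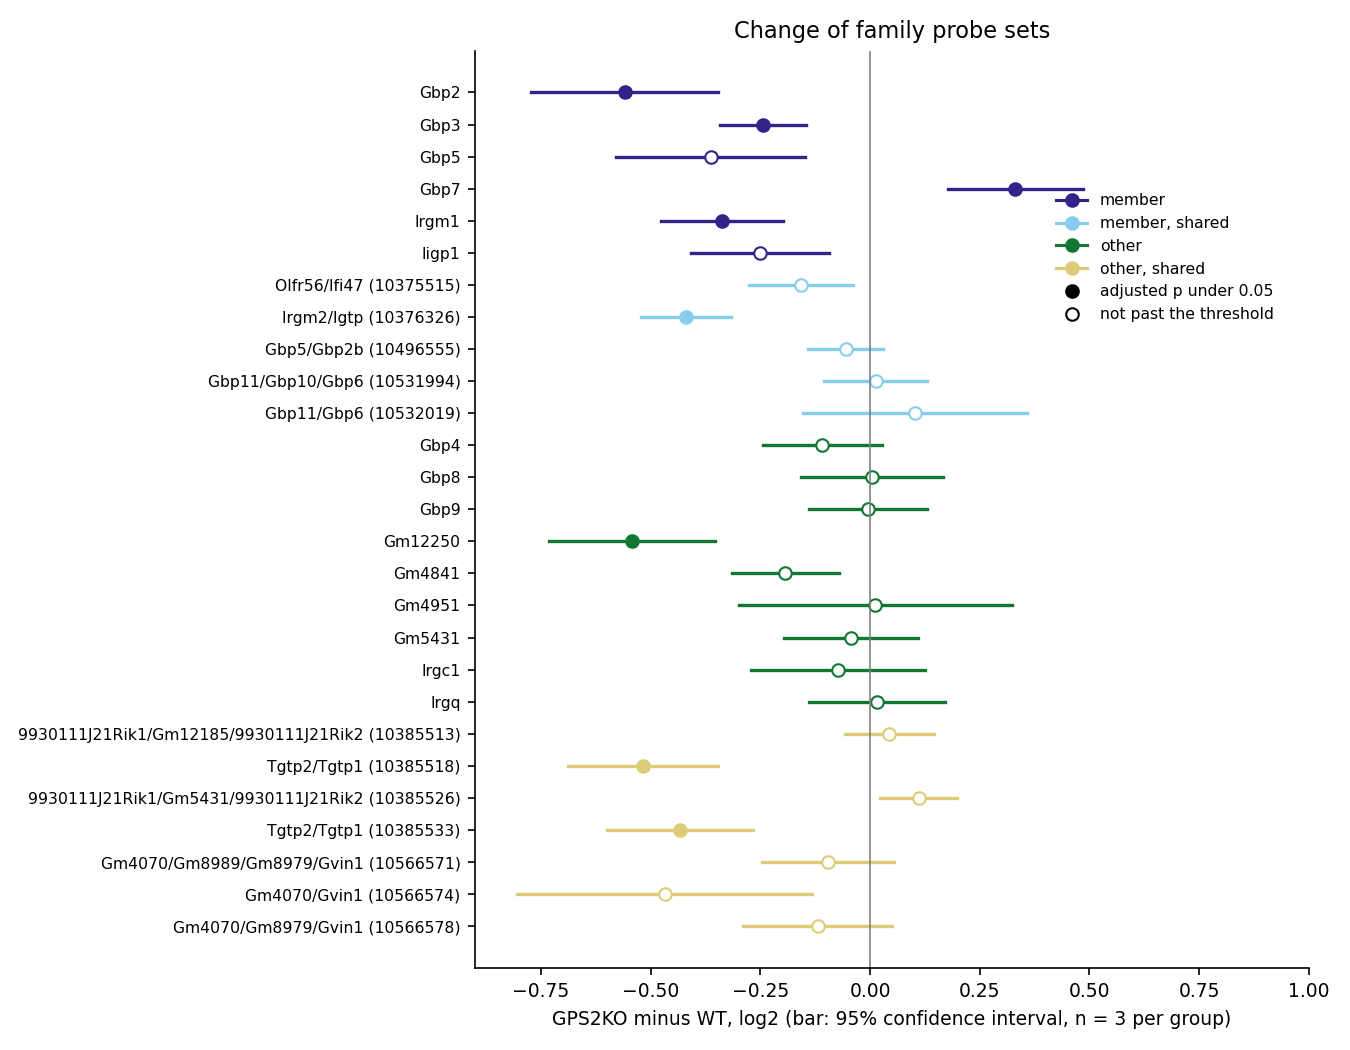
Log2 change of each family probe set (GPS2KO less WT) with its 95% confidence interval (n = 3 per group); filled points have a limma adjusted p under 0.05, over genes for single-symbol and over all probe sets for shared ones. Gbp7 is the only filled point to the right of 0, while Gbp2, Gm12250 and the Tgtp1 and Tgtp2 probe sets lie farthest to the left among the filled ones.

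Genes that carry the interferon gamma signal to this family were set beside it. Of 13 tested, 2 fell, 0 rose and 11 did not pass, with a median of -0.10. Lower means in GPS2KO were seen for 12 of the 13, and for 10082 of all 18820 tested genes. A variance trend gave 5 falls in this list, and over all tested genes 1248 falls in place of 720. Irf1, a transcription factor that drives GBP genes, fell from 9.26 ± 0.09 to 8.93 ± 0.01 (-0.33, SE 0.0512, adjusted p = 0.00953). With the mean of all its probe sets Irf1 differed by -0.20 (adjusted p = 0.0184). The phosphatase gene Ptpn6 fell by 0.24 (adjusted p = 0.0102). Nlrc5 differed by -0.19 (adjusted p = 0.0629) and the feedback inhibitor Socs3 by -0.17 (0.137). The cytokine gene Ifng was dim, at 4.49 ± 0.12 in WT and 4.36 ± 0.09 in GPS2KO (n = 3 each).

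Of 11 genes of type I interferon signalling, 4 fell, 0 rose and 7 did not pass, with a median of -0.07. The falls of Irf7 and Usp18 were known when the list was made and are no independent support. Irf7 fell by 0.98 (adjusted p = 0.00149) and Usp18, which restrains the receptor, by 1.08 (adjusted p = 0.0103). Irf9, the DNA-binding part of the complex that reads the ISRE, fell by 0.21 (limma adjusted p = 0.0165). Isg15 fell by 0.29 (limma adjusted p = 0.0183), from a dim 5.13 ± 0.07 in WT to a dim 4.84 ± 0.07 in GPS2KO. With the replicate block, or without WT replicate 1, GPS2KO replicate 1 or GPS2KO replicate 3, 2 of the list fell. The Irf9 call also ended without GPS2KO replicate 2 (adjusted p = 0.0579) and the Isg15 call without WT replicate 3 (0.0587). Ifnb1 was dim in both groups (4.26 ± 0.06 and 4.24 ± 0.07).

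The machinery that acts with these GTPases was measured as well. Of 14 genes for the lipidation and ubiquitin steps that bring them to vacuoles, 0 passed limma and the median was 0.02; 3 had an unadjusted p under 0.05, near the 20.8% of all tested genes that did. Atg12 differed by 0.22 (adjusted p = 0.11) and Gabarapl1 by 0.12 (0.147). Of 7 genes of protein prenylation, which anchors Gbp2 and Gbp5, 0 passed, 1 had an unadjusted p under 0.05, and the median was 0.03. That gene was Pggt1b, a geranylgeranyl transferase subunit, at 0.18 (adjusted p = 0.0674).

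Of 10 genes of the inflammasome and pyroptosis, 1 fell, 1 rose and 8 did not pass, with a median of -0.04. Nlrp3 fell by 0.22 (adjusted p = 0.0143). Il1a rose by 0.65 (adjusted p = 0.0379), from a dim 4.43 ± 0.11 to a dim 5.08 ± 0.31. Gsdmd, the pore-forming protein, differed by -0.17 (adjusted p = 0.0639). Leaving out 1 array gave between 0 and 2 calls in this list. The Nlrp3 call ended without WT replicate 1, GPS2KO replicate 1 or GPS2KO replicate 3, at adjusted p up to 0.0622, and with the replicate block (0.0546). That of Il1a ended without any WT array or GPS2KO replicate 2, at up to 0.124.

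The 5 genes outside the set whose 6-array profile, centred on the gene's mean, lay nearest to the mean profile of the 6 measured genes were Ifi35, Cavin3, Nlrp3, Atp8b2 and Pam. Their Euclidean distances over the 6 arrays ran from 0.0561 for Ifi35 to 0.0649 for Pam. The mean change of the 6 genes was -0.24, and these genes differed by -0.20, -0.25, -0.22, -0.22 and -0.23. Ifi35 is an interferon-induced gene. All 5 were picked for likeness to a profile that is lower in GPS2KO, so their lower values follow from the choice. The mean profile averages Gbp7 with genes of the opposite direction.

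Macrophage markers were bright in both groups. Fcgr1, at 0.13 (limma adjusted p = 0.0851), Adgre1, at 0.07 (0.361), Csf1r, Cd68 and Lyz2 did not pass. Only 1 of the 7 macrophage markers, Lyz2, had a lower mean in GPS2KO, against 10082 of all 18820 tested genes. Groups did not overlap for 5 of the 7, against 27.1% of all tested genes. Of 7 such genes, 2 rose, Mertk and Itgam, and their summed log2 signal ran from 15.22 to 15.27 in WT and from 15.29 to 15.30 in GPS2KO. All 7 markers of T and NK cells, which make interferon gamma, were dim; 0 passed limma and 0 had an unadjusted p under 0.05, and their sums ran from 7.26 to 7.28 in WT and 7.22 to 7.26 in GPS2KO. Of 6 fibroblast markers, Col1a1 fell and Dcn rose, with sums from 12.93 to 13.02 in WT and 12.82 to 12.84 in GPS2KO. Of 4 B cell markers Cd79b fell by 0.46 while the other 3 were dim; sums ran from 7.64 to 7.74 and from 7.36 to 7.45. Of 7 neutrophil markers Ngp rose, with sums from 8.09 to 8.18 and from 8.18 to 8.34. None of 6 dendritic cell and 2 erythroid markers passed limma, and 0 of either had an unadjusted p under 0.05. The part of these markers in the changes of the GTPase genes was not tested.

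**Figure D5:**
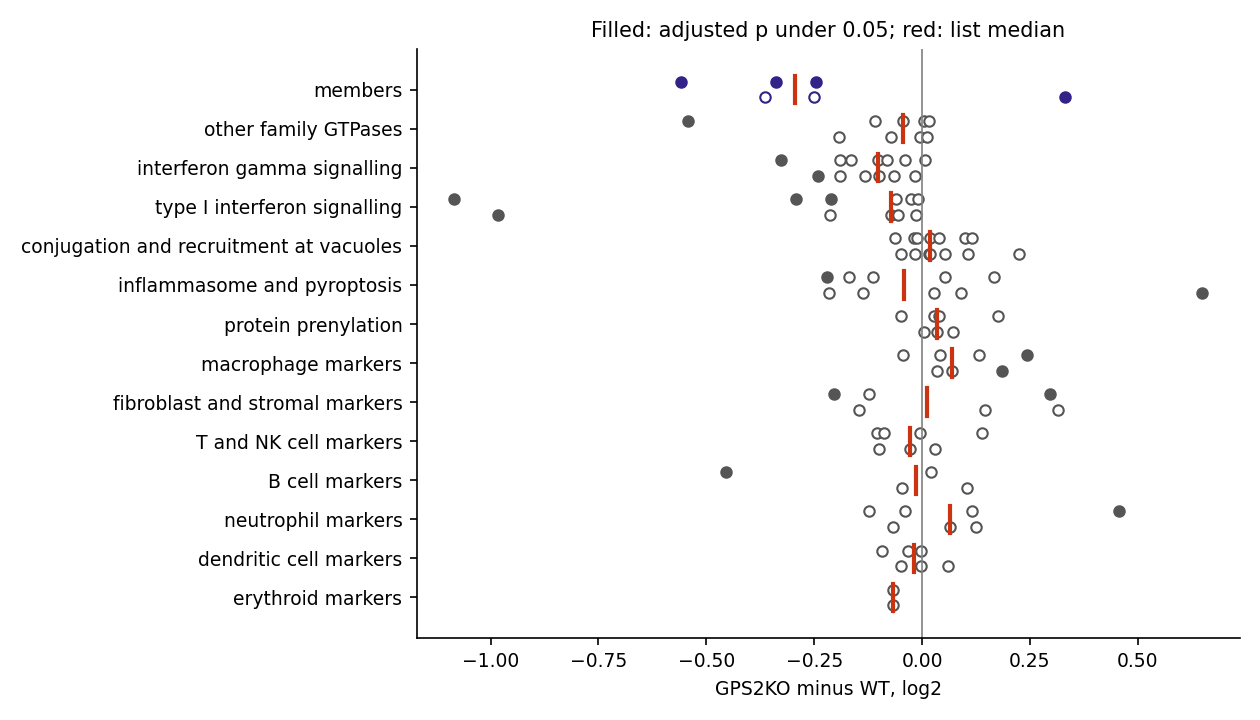
Log2 change of each gene, GPS2KO less WT (n = 3 per group), for the 6 measured genes and the lists set beside them; filled points have a limma adjusted p under 0.05 and red bars are medians. The median of the 6 genes, -0.29, lies to the left of the list medians, which run from -0.10 to 0.07, and the type I interferon list holds the largest single falls.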

How the data were processed

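RNA of 6 samples was hybridized to Affymetrix arrays, 1 array per sample. The deposited values were log2 signals per probe set and array, made by the authors with RMA in the R package oligo, per the submitters' processing notes. RMA corrects background, normalizes quantiles across arrays and summarises probes by median polish, which hides any shift common to most genes. For versions and the genome build: not given in the sources used here. Of 35556 probe sets, 21218 had 1 symbol in GEO's platform annotation, 1881 had several and 12457 were not listed. Of those with 1 symbol, 21185 matched RefSeq (GRCm38.p6) by gene number.

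Groups came from the sample titles. Genes were fitted with limma 3.58.1 in R 4.3.3 (lmFit and eBayes, group as the only term, 2-sided p adjusted by Benjamini-Hochberg over 18820 genes, threshold 0.05). Shared probe sets were read from a second fit over all probe sets. The number of arrays limits the precision. On simulated data for this comparison over 18820 genes, limma recovered 90% of the 100 genes that were shifted by 0.5 log2 units and called 10 unshifted genes. No smaller shift was planted. The share recovered at the smaller changes of Gbp3, Gbp5, Gbp7, Irgm1 and Iigp1 is therefore not known.

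The members and lists were chosen with earlier results of these data known. The rule named all family genes, Gps2, up to 4 genes per list by smallest p and the 5 nearest profiles; Ifng, Ifnb1, Csf1r, Cd68 and Lyz2 were added after their values were seen. Some genes of the lists are not reported here. Alternatives were quantile normalization, median centring, a variance trend, leaving out dim genes, the mean of all probe sets, a replicate block and leaving out each array. Adjustment over all probe sets, and every alternative for the shared probe sets and for the count over 11 probe sets, were added after the data were seen.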

Additional observations from a re-analysis of the deposited data

How the results depend on the processing

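Of 1265 genes past the threshold with all arrays, a variance trend gave 2174, leaving out dim genes 1962 and leaving out 1 array 749 to 842. For the measured genes of the set, 4 of 6 passed; this was 1 to 5 with 1 array left out (2 without WT replicate 1, 1 without WT replicate 3 and 1 without GPS2KO replicate 1) and 0 when adjusted over all probe sets. The other settings gave 4 to 6, and the direction of each of the 6 genes was kept under every alternative run. Of the 11 probe sets, 1 passed; this became 2 after median centring, 3 with a variance trend, 5 without dim probe sets, 0 with the replicate block and 0 to 2 with 1 array left out. The probe set of Gbp6, Gbp10 and Gbp11, at 0.01, was -0.0084 after quantile normalization, -0.011 after median centring and -0.016 to 0.047 with 1 array left out. That of Gbp6 and Gbp11 was -0.00019 to 0.19 with 1 array left out. The cause of these differences was not tested.

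Median centring gave 2 further family genes in place of 1. A variance trend gave 5 interferon gamma genes in place of 2, 2 vacuole genes in place of 0 and 1 prenylation gene in place of 0, as did quantile normalization and leaving out dim genes for prenylation. The replicate block gave 2 type I interferon genes in place of 4, 1 inflammasome gene in place of 2, 1 macrophage marker in place of 2 and 0 fibroblast markers in place of 2. With 1 array left out, counts ran from 2 to 4 for type I interferon, 0 to 1 for vacuole genes, 0 to 2 for the inflammasome, 1 for macrophage, 0 to 1 for fibroblast and 0 to 1 for neutrophil markers. Deviations of same-numbered arrays from their group means correlated at 0.0035, 0.026 and -0.006 across genes. The labels do not say whether same-numbered arrays were handled together, and correlations from so few arrays cannot settle it. The block gave 862 genes in all. Gbp5 and Iigp1 are dim, so their sizes are not firm.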

Other observations

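Across all tested genes with a promoter window, the 2 motif cores can be set beside the changes. Of 14749 such genes, 574 fell (3.89%) and 420 rose (2.85%). Of the 576 with an ISRE core, 41 fell (7.12%) and 15 rose (2.6%), and the median change was -0.01, as it was over all genes with a window. Of the 1336 with a GAS core, 46 fell (3.44%) and 38 rose (2.84%). Of the 94 with both cores, 3 fell and 3 rose. Those that fell were the chemokine Cxcl14, by 0.65 (limma adjusted p = 0.00028), Gm12250 and the dim 4930550C14Rik. Those that rose were Gbp7, Agmo, an ether lipid monooxygenase (0.49, adjusted p = 0.0282), and Tnfrsf1b, a receptor of tumour necrosis factor (0.19, adjusted p = 0.0349). These counts are a description, and no test was made of them.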
